A study of Bos taurus with 3 samples.

Results

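The genes described here are 10 secreted proteins of the extracellular matrix: fibronectin (FN1), matrix Gla protein (MGP) and the matricellular proteins SPARC, osteopontin (SPP1), thrombospondins 1 and 2 (THBS1, THBS2), tenascin C (TNC), periostin (POSTN), CCN1 and CCN2. They were chosen by name, as the probe sets that carry 1 of these gene symbols and no other in the platform annotation. All 10 were measured, by 20 probe sets in all, among 9155 genes and 24016 probe sets of the table. RNA of 3 bovine (Bos taurus) ovarian cell cultures was hybridized, 1 Affymetrix Bovine Genome Array per culture. The fetal cultures were 2 isolates of Gonadal Ridge Epithelial-Like (GREL) cells, which are polygonal cells of the fetal ovary, enriched clonally and grown from ovaries labelled as 130 days of gestation. The study's methods give the fetuses slightly different ages. The adult culture held fibroblasts grown from medullar stroma, taken from the ovary of an animal over 1 year old. All 3 were grown from collagenase-dispersed ovary in medium with fetal calf serum, and no treatment was given. The collagenase was more concentrated for the adult stroma, and the methods state confluence at harvest for the fetal cultures only. Age, cell type, animal and dispersal differ together between the groups and cannot be told apart, and the fibroblasts had no replicate.

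Matricellular proteins are secreted into the matrix but serve mainly as signals rather than as structure. They bind integrins, other cell-surface receptors, growth factors and matrix fibrils, and are known for high expression in development, wound repair and cultured fibroblasts. Fibronectin forms the fibrils on which many of them assemble, and in the ovary it is a component of stroma. MGP is a small vitamin K-dependent protein that inhibits calcification and binds bone morphogenetic proteins.

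Values are log2 RMA expression, so a difference of 1 is a doubling. Array medians were 2.9 to 3.0, with maxima of 12.2 to 12.3. The deposited values carry no detection calls. A background level was therefore set at the 95th percentile of 49 genes of other organs, which was 7.26 for the fibroblasts and 7.04 and 7.16 for GREL isolates 1 and 2. It is a rough guide, since it sets probe sets of different genes side by side. The level also depends on a few bright genes, with 3 of the 49 (ALB, PRL and POMC) above it on every array. The 90th percentile was only 4.82 to 5.04 and the median 2.0, so a reading below the level does not show absence. Each member is described by its probe set of highest mean. In culture RNA of this kind, fewer cells of a type and less RNA per cell cannot be told apart.

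MGP and TNC were the members with the widest separation from the fibroblasts, both lower in GREL cells. MGP was at 11.6 on the log2 scale in the adult fibroblasts, 8.4 in GREL isolate 1 and 5.2 in isolate 2. It was thus 9.19-fold lower in isolate 1 and 84.5-fold lower in isolate 2. The mean log2 difference was -4.80 (standard error, SE, 2.23, limma adjusted p = 0.392), and the isolates themselves lay 3.2 apart. The groups did not overlap, but isolate 1 lay as far from isolate 2 as from the fibroblasts. TNC, an anti-adhesive glycoprotein of embryonic and remodelling stroma, was at 10.6 in the fibroblasts, 7.2 in isolate 1 and 6.4 in isolate 2. It was 10.6-fold and 18.4-fold lower in the isolates, a mean log2 difference of -3.80 (SE 0.56, limma adjusted p = 0.217). Here the isolates lay close together, 0.8 apart, and far below the fibroblasts. With each value spread at random within its rounding step, TNC passed the test (adjusted p = 0.0358 in limma, the median of 20 draws), a setting chosen after the data were seen. In isolate 2 both genes read below the background level (5.2 and 6.4 against 7.16), which makes these folds uncertain. By mean difference MGP ranked 6 and TNC 22 among the 9155 genes in the direction of lower expression in GREL cells.

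**Figure D1:**
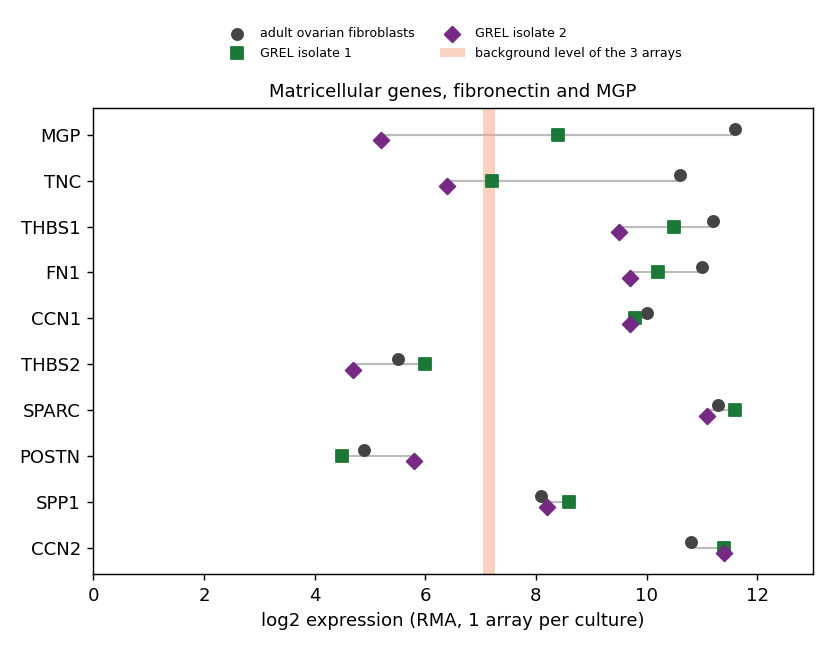
RMA expression on the log2 scale (horizontal axis) of the 10 members at their probe set of highest mean, ordered by mean difference. Each symbol is 1 array, with circles for the fibroblasts, squares for isolate 1 and diamonds for isolate 2, and with the background level of the 3 arrays as a shaded band. MGP (11.6, 8.4 and 5.2) and TNC (10.6, 7.2 and 6.4) spread widest, and CCN2 is the member with the largest difference in the other direction.

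Fibronectin and thrombospondin 1 were bright in all 3 cultures and somewhat lower in both GREL isolates. FN1 was at 11 in the fibroblasts, 10.2 in isolate 1 and 9.7 in isolate 2. The difference of -1.05 (SE 0.35, limma adjusted p = 0.319) was larger than the gap of 0.5 between the isolates, and FN1 stayed above the background level on every array. The study stated, from stained ovary sections, that GREL cells do not express fibronectin or other stromal matrix proteins such as type I collagen and decorin. The values here are RNA of cultured cells. THBS1, a trimeric glycoprotein that activates latent TGF-beta and inhibits angiogenesis, was at 11.2 in the fibroblasts, 10.5 in isolate 1 and 9.5 in isolate 2. It was 1.62-fold lower in isolate 1 and 3.25-fold lower in isolate 2, with a mean log2 difference of -1.20 (SE 0.70, limma adjusted p = 0.454) against a gap of 1.0. THBS2, the related inhibitor of angiogenesis, was at 5.5 in the fibroblasts, between isolate 1 at 6.0 and isolate 2 at 4.7. All 3 values of THBS2 lay below the background level, and its difference of -0.15 was smaller than the gap of 1.3 between the isolates (limma adjusted p = 0.947).

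The CCN proteins, induced by serum, mechanical tension and TGF-beta, differed little between the cultures. CCN2 was at 10.8 in fibroblasts against 11.4 in both isolates, 1.52-fold higher, a log2 difference of 0.60 (SE 0.03, limma adjusted p = 0.182). Its isolates round to the same value, so the standard error is too small, and with a robust prior in limma the adjusted p was 0.0452. CCN1 was at 10 in fibroblasts against 9.8 and 9.7 in the isolates, differing by -0.25 (SE 0.07, limma adjusted p = 0.286). The lower value of CCN1 and the higher value of CCN2 each exceeded the gap between isolates but amounted to less than a doubling.

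SPARC, a collagen-binding glycoprotein that modulates adhesion, was at 11.3 in the fibroblasts, 11.6 in isolate 1 and 11.1 in isolate 2. The fibroblasts lay between the isolates, and the mean difference was 0.05 (SE 0.35, limma adjusted p = 0.955). SPP1, an integrin-binding phosphoprotein, was at 8.1 in the fibroblasts, 8.6 in isolate 1 and 8.2 in isolate 2. Its difference of 0.30 was smaller than the gap of 0.4 (limma adjusted p = 0.607). POSTN, which promotes collagen crosslinking, was below the background level throughout, at 4.9 in the fibroblasts, 4.5 in isolate 1 and 5.8 in isolate 2. Only for POSTN among the 10 members did isolate 2 read above isolate 1. These 3 genes did not separate the GREL cells from the fibroblasts at this number of arrays, which does not show that the levels were equal.

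Of the 10 members, 2 (MGP and TNC) were over 3-fold lower than the fibroblasts in both isolates, against 2.38% of all 9155 genes. None was over 3-fold higher, against a background of 2.38% in that direction too. Dim genes weigh on this background, and among the 1738 genes above the background level on at least 1 array 4.14% were over 3-fold lower. By any amount, 5 members were lower in both isolates (33.5% of all genes) and 2 were higher in both (41.6% of all genes). In 6 of the 10 the mean difference exceeded the gap between isolates, as it was in 64.5% of all genes. The median log2 difference of the members was -0.20, and that of all genes was 0.05. limma called none of the 24016 probe sets at an adjusted p under 0.05 (0% in either direction), with 2354 higher and 2666 lower at an unadjusted p under 0.05. This count of 0 depended on the fit, since a robust prior in limma called 571 higher and 618 lower, and rounded values spread at random gave medians of 255.5 and 339. The one way ANOVA of the study's methods also called none after adjustment, with 186 higher and 208 lower unadjusted among the 20503 probe sets it could test. It gave no p for the others, CCN2 among them, whose isolates have equal values. The spread came from 2 isolates alone, with 1 residual degree of freedom, and CCN2 and TNC were the 2 members with an unadjusted p under 0.05.

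**Figure D2:**
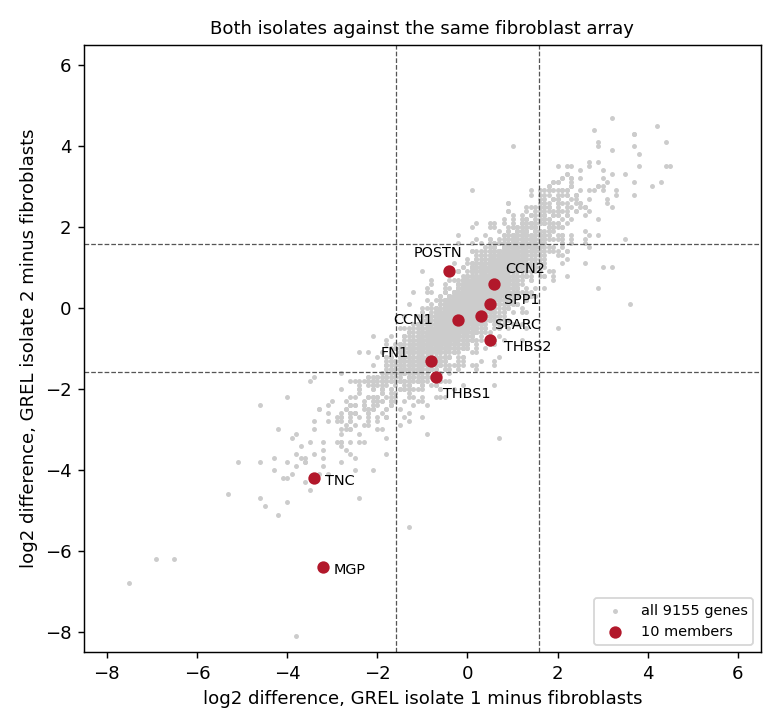
Log2 difference from the fibroblast array in GREL isolate 1 (horizontal axis) and in GREL isolate 2 (vertical axis) for all 9155 genes (small grey points) and the 10 members (large labelled points), with dashed lines at 3-fold. MGP and TNC lie in the lower left corner past 3-fold on both axes, and THBS1 passes 3-fold in isolate 2 only. The axes share the fibroblast array, so the slope of the cloud is partly built in.

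The 5 members that were lower in both isolates (MGP, TNC, THBS1, FN1 and CCN1) were also lower in isolate 2 than in isolate 1. Values ran in this order, fibroblasts above isolate 1 above isolate 2, in 14.4% of all genes and in 43.0% of the 3066 genes that were lower in both isolates. The isolates were over 3-fold apart in 1 member, MGP, against 0.502% of all genes, and its gap ranked 5 among the 9155. Leaving out isolate 1 brought THBS1 past 3-fold lower as well, 3 members in all, and leaving out isolate 2 kept MGP and TNC only. The named genes whose 3 values followed MGP most closely, by the summed absolute distance after each gene's own mean was subtracted, were IL6 (distance 1.73), BOLA-N (1.87) and BOLA-DQB1 (1.93). IL6, an inflammatory cytokine, was at 7.0 in the fibroblasts, 4.6 in isolate 1 and 2.3 in isolate 2, below the background level on each array. For CCN2, 42 genes had an identical pattern on the rounded values, so none is singled out. With 3 arrays such likeness is weak.

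Of the 10 members, 4 were read by several probe sets and 6 by 1, and the probe sets of a gene did not all move alike. THBS1 had 6. Its second brightest was at 9.5 in the fibroblasts, 7.9 in isolate 1 and 6.0 in isolate 2, or 3.03-fold and 11.3-fold lower, a wider separation than at the brightest. A dim one ran the other way, at 3.2 in fibroblasts against 4.5 and 4.7 in the isolates, or 2.46-fold and 2.83-fold higher. A further one, near the background level, was nearly level, at 6.8, 6.9 and 7.0 in the same order. The other probe sets of THBS1, both below the background level, were lower in the isolates by 0.6 or less on the log2 scale. The 3 further probe sets of MGP read between 1.2 and 2.2 on every array, the second of TNC between 2.2 and 2.5, and the second of FN1 between 1.1 and 1.3. These lie near or below the array median and show none of the separation of the bright ones. Counting every probe set, 3 of 20 were over 3-fold lower in both isolates and 0 were over 3-fold higher. With the probe sets of a gene averaged, TNC was the only member over 3-fold lower.

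**Figure D3:**
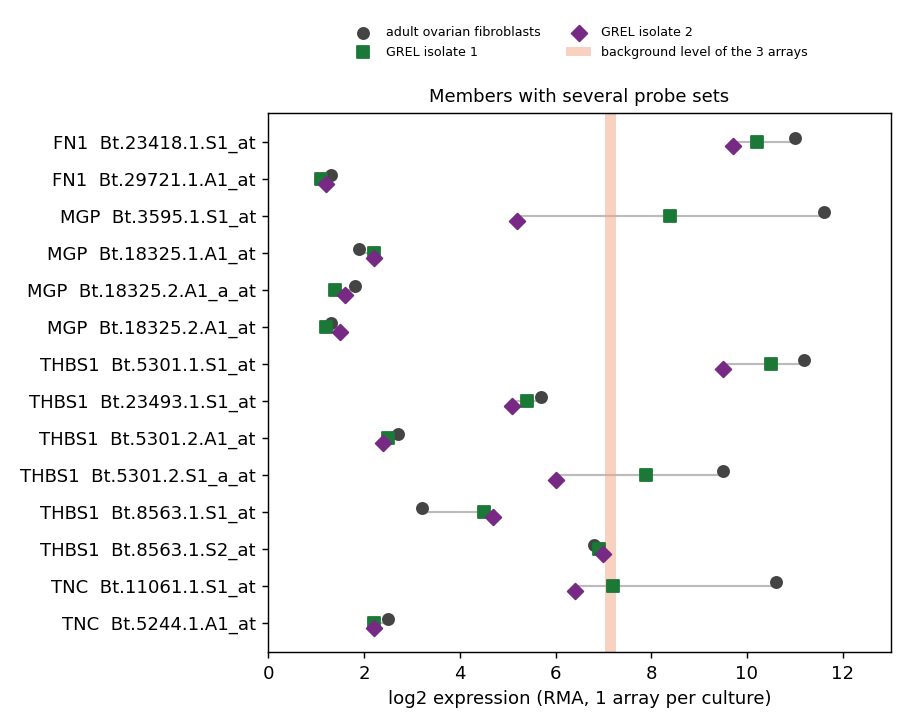
RMA expression on the log2 scale (horizontal axis) at each probe set of FN1, MGP, THBS1 and TNC, the 4 members with several. Each symbol is 1 array, with circles for the fibroblasts, squares for isolate 1 and diamonds for isolate 2, and with the background level as a shaded band. For each gene the brightest probe set is listed first, and in THBS1 the probe set at 3.2, 4.5 and 4.7 runs opposite to the bright ones.

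Relatives of the members in the thrombospondin, CCN, SPARC, tenascin, periostin and bone matrix protein families were next compared. Of 12 measured, 3 were over 3-fold lower in both isolates and 0 were over 3-fold higher, against 2.38% of all genes in each direction. SMOC2, a calcium-binding matricellular relative of SPARC, was at 9.3 in the fibroblasts, 7.3 in isolate 1 and 6.3 in isolate 2. TNXB, a tenascin of collagenous connective tissue, was at 6.3, 4.5 and 3.6 in the same order, and SPARCL1, an anti-adhesive SPARC relative, at 4.1, 1.2 and 1.3. TGFBI, the closest relative of periostin, was higher in the GREL cells, at 7.6 in fibroblasts against 8.4 and 9.8 in the isolates, though 1.4 separated the isolates. TGFBI was picked after its values were seen. TNXB and SPARCL1 lay below the background level on every array and SMOC2 in isolate 2, so their folds are uncertain. The median difference of the 12 was -0.18 on the log2 scale.

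Of 11 measured receptors of these proteins none was over 3-fold higher or over 3-fold lower in both isolates, against 2.38% of all genes in each direction. The median log2 difference was -0.25. The integrin chains ITGB1 and ITGB5 were bright and nearly level, ITGB1 at 10.3 in fibroblasts against 10.5 and 10.4 in the isolates, and ITGB5 at 11.5, 11.7 and 11.6. ITGAV, the chain that binds osteopontin and periostin, was at 8.4 in the fibroblasts, 7.6 in isolate 1 and 6.9 in isolate 2, below the background level there. Its partner ITGB3 was higher, at 7.1 in fibroblasts, just below the background level, against 8.3 in both isolates. CD44, a hyaluronan and osteopontin receptor, was at 9.2 in fibroblasts against 8.3 in both isolates. ITGA5, the alpha chain of the fibronectin receptor, was below the background level throughout, at 5.0, 3.6 and 3.4. CD36, a thrombospondin receptor also below that level, was over 3-fold apart between the isolates, at 1.3 in the fibroblasts, 1.1 in isolate 1 and 2.9 in isolate 2. These receptors were picked after their values were seen.

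Among 11 measured partners and processing enzymes, 1 was over 3-fold higher and 1 over 3-fold lower in both isolates. The share of all genes was 2.38% in each direction, and the median log2 difference of the 11 was -0.55. BMP2, a bone morphogenetic protein that MGP binds, was at 1.7 in fibroblasts against 5.5 in both isolates, below the background level on each array. TGM2, the transglutaminase that crosslinks fibronectin, was at 5.6 in fibroblasts against 2.5 and 3.2 in the isolates, also below it. GGCX, the carboxylase that modifies MGP, was at 6.9 in fibroblasts against 5.8 and 5.7 in the isolates, below the background level throughout. VKORC1, which regenerates vitamin K for that reaction, was at 8.8 in fibroblasts against 7.4 and 7.3 in the isolates. The mean log2 difference was -1.15 for GGCX and -1.45 for VKORC1 (limma adjusted p = 0.182 for each). GGCX and VKORC1 were picked after their values were seen.

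Genes induced together with CCN1 and CCN2 by serum, TGF-beta or the coactivator YAP did not all move alike. Of 12 measured, 5 were lower and 2 higher in both isolates, against 33.5% and 41.6% of all genes. Only FOS was over 3-fold lower in both isolates and 0 were over 3-fold higher, against 2.38% of all genes in each direction. The median difference was -0.05. FOS, an immediate early transcription factor, was at 8.7 in fibroblasts against 6.8 and 7.1 in the isolates. EGR1, another immediate early factor, was at 9.4 in fibroblasts against 7.6 and 8.2 in the isolates. JUNB was at 7.7 in fibroblasts against 6.9 and 6.5, and like FOS it read below the background level in both isolates. ANKRD1, a YAP target, was level at 10.8 in fibroblasts against 10.8 and 10.9 in the isolates. The 2 genes higher in both isolates were TPM1 and MYC. TPM1 was at 10.2 in fibroblasts against 10.9 in both isolates. MYC was at 7.0 in fibroblasts, below the background level, against 7.9 and 7.2 in the isolates. EGR1, JUNB, ANKRD1, TPM1 and MYC were picked after their values were seen.

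Of 13 measured genes of stromal matrix, 11 were lower in both isolates, against 33.5% of all genes, and the median difference was -1.30. Of these 11, 10 were also lower in isolate 2 than in isolate 1, against 43.0% of all genes lower in both. By over 3-fold in both isolates 2 were lower, COL6A1 and FMOD, against 2.38% of all genes, and none was higher. COL6A1, a chain of beaded-filament collagen, was at 9.3 in the fibroblasts, 7.5 in isolate 1 and 7.1 in isolate 2. FMOD, a proteoglycan of collagen fibrils, was at 10.2, 8.6 and 8.0 in the same order. COL1A1, a chain of fibrillar type I collagen chosen once its values were known, was at 9.7, 8.7 and 7.4. The median of the 10 members, -0.20, was nearer to that of all genes than to that of stromal matrix, while MGP, TNC, THBS1 and FN1 each lay at -1.05 or lower.

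**Figure D4:**
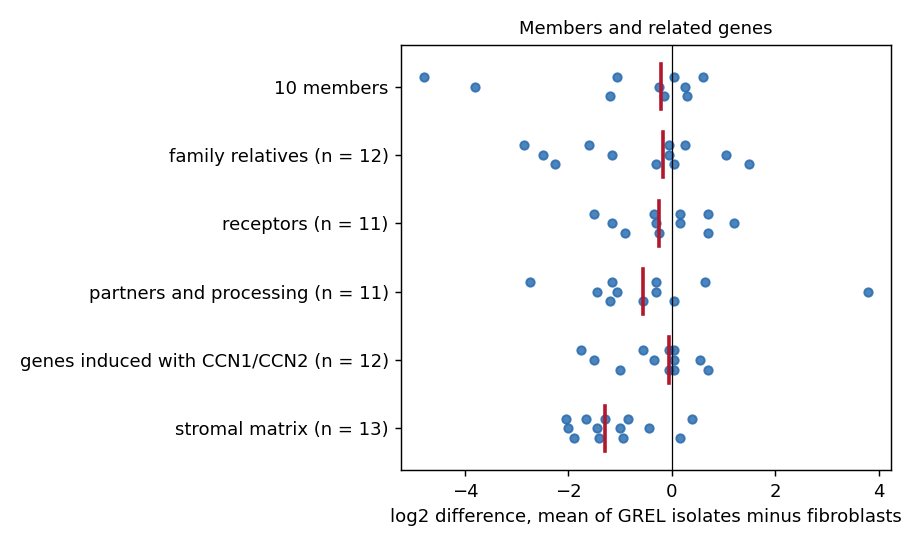
Mean log2 value of the GREL isolates minus the fibroblast value (horizontal axis). Points are the measured genes of the 10 members and of 5 related lists, numbers in brackets count them, and vertical bars mark medians, which are -0.20 for the members and -1.30 for stromal matrix, and BMP2 is the point farthest to the right.

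Cell type markers were checked beside these results. None of the 9 measured epithelial markers was lower in both isolates, against 33.5% of all genes (DSG2 and DSP were not measured). Of the 9, 5 were over 3-fold higher in both isolates, against 2.38% of all genes. Among these 5, KRT7, PKP2 and LSR stayed below the background level on every array. CDH3 passed that level only in isolate 1, at 7.7, so the folds of these genes are uncertain. KRT19 was bright in each isolate, at 7.1 in fibroblasts against 11.3 and 11.6. The stromal markers were not absent from the GREL cells. Of 12, 10 read above the background level in the fibroblasts, 7 in isolate 1 and 6 in isolate 2. Lower in both isolates were 9, against 33.5% of all genes. By over 3-fold 2 of them were lower (PDGFRA and TCF21), against 2.38% of all genes. Of these 12 markers 5 also belong to the stromal matrix list, and none is a member. Their summed linear signal was 13701 in the fibroblasts, 9525 in isolate 1 and 6697 in isolate 2. That of the 10 members was 14735, 10282 and 7782 in the same order, and the part of stromal cells in the members' differences was not tested. No measured marker of endothelium, blood or germ cells read above the background level on any array. Only 3 of 6 listed germ cell markers were measured, without DAZL, DDX4 and DPPA3, and the blood marker CD163 was not measured. KIT, below that level throughout, was at 5.7 in fibroblasts against 1.5 and 2.7 in the isolates. Of 5 smooth muscle markers 3 read above the background level in every culture, with ACTA2 at 10.5 in fibroblasts against 10.4 and 10.7 in the isolates. DES was lower, at 9.5 in fibroblasts against 8.3 and 8.1. In all, 3 of the 5 were lower in both isolates and 0 higher, against 33.5% and 41.6% of all genes. Their median log2 difference was -0.55. Of 8 granulosa cell markers 4 were higher and 2 lower in both isolates, against 41.6% and 33.5% of all genes, and none by over 3-fold. Only INHBA read above the background level, at 7.3 in isolate 1. FOXL2, a granulosa cell factor, read 1.8 to 2.0 on all 3 arrays, near the median of 2.0 of the genes of other organs. The study also reported FOXL2 protein in GREL cells of ovary sections, whereas these values are RNA of cultured cells.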

How the data were processed

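Total RNA of each culture (250 ng) was labelled with a 3′ IVT kit and hybridized to 1 Affymetrix GeneChip Bovine Genome Array. Log2 values were deposited after the authors had background-corrected and quantile-normalized the arrays with RMA, using Partek 6.5 (a version the submitters' notes give). The values are rounded to steps of 0.1. All 3 columns were matched to samples and 0 were left unused. The table has 24128 probe sets, from which 112 array controls were dropped. Platform annotation gave 1 symbol for 13292 probe sets, several for 86 and none for 10638, with 0 symbols updated through the current gene table, in which 13263 had their gene identifier. The sources name no genome build, so no coordinates are given, and no sequences were used here.

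The isolates are described as separate cultures, and p-values measure the spread between these 2 only. GREL cells were compared with fibroblasts in limma 3.58.1 (R 4.3.3, lmFit and eBayes, Benjamini-Hochberg over all probe sets). Simulated data with 1 common spread served to check the recovered differences only, not the p-values or calls. Python 3.11.15 with pandas 2.3.3 did the rest. The isolates round to the same value in 3513 probe sets, and the eBayes prior had 0.547 degrees of freedom. Members and lists were chosen with earlier results of these data known. All members are named. Of each related list, genes over 3-fold in both isolates are named (up to 4 in each direction), others being picked after their values were seen. Patterns were matched for the members with the largest difference in each direction. Alternatives were an intensity trend, a robust prior, the methods' ANOVA, a filter on dim probe sets, median centring, repeated quantile normalization, probe sets averaged, a 2-fold threshold, a 90th percentile background and leaving out an isolate. Spreading the rounded values and counting every probe set were added after the data were seen. The number of arrays limits the precision.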

Additional observations from a re-analysis of the deposited data

How the results depend on the processing

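Array number sets the main limit, with 1 fibroblast culture. Of 98 recomputed member differences, 3 changed sign and 2 passed the test's threshold. SPARC was at 0 under median centring and repeated quantile normalization, and values with an isolate left out carry no test, nor does CCN2 under the ANOVA. With either isolate left out SPARC ranged from -0.2 to 0.3, THBS2 from -0.8 to 0.5 and POSTN from -0.4 to 0.9, so that SPARC changed sign without isolate 1 and THBS2 and POSTN without isolate 2. TNC passed with the rounded values spread (adjusted p = 0.0358 in limma, range over its alternatives 0.0358 to 0.663) and CCN2 with a robust prior (0.0452, range 0.0452 to 0.25). The count of members over 3-fold lower, 2, was 1 with probe sets averaged and 2 to 3 without either isolate. The count over 3-fold higher was 0 in every setting run. Over all 9155 genes the counts over 3-fold were 218 in each direction. A 2-fold threshold gave 531 higher and 438 lower, and keeping the 1738 genes above the background level, where fewer were counted, gave 69 and 72 over 3-fold. Without either isolate they were 263 to 431 higher and 251 to 331 lower. limma calls, 0 in each direction, became 571 higher and 618 lower with a robust prior and 255.5 and 339 with the values spread (medians of 20 draws, chosen after the data were seen). The cause of the difference between these fits was not tested. With the 90th percentile as background level, 9 members lay above it on each array, against 8, 8 and 6 at the 95th. No paired analysis was possible because there was 1 fibroblast culture, from another animal than the GREL isolates.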
